A study of Ipomoea batatas with 9 samples.

Results

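Storage of sweetpotato roots at 4 °C is compared here with storage at 14 °C, using the 6 libraries the labels give to these treatments, of 9 libraries in the series. The roots are storage roots of Ipomoea batatas cultivar Xushu 18. Roots stored at 4 °C are called LTS in the sample titles and roots stored at 14 °C are called ATS. Each store has 3 libraries of total RNA, each library comes from a pool of 7 roots, and both stores were held at 85% relative humidity. The third group of the series, roots that were not stored (CK, 3 libraries), enters the estimate of the spread between replicates and is given as a level in a few places. Sampling was repeated during storage. The labels give no week of storage for the sequenced roots, so whether both stores were sampled after the same time is unknown. The extraction protocol in the labels speaks of retinas, which cannot describe root samples, so the handling of the tissue before extraction is not known from it.

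Sweetpotato is a tropical crop, and its storage roots are injured by chilling, which shows as internal browning, altered respiration and decay. Plants exposed to cold are known to change membrane lipids, calcium signals, hormone responses, respiration through alternative pathways, and the folding and breakdown of proteins. The question of the series was how root transcripts react to chilling. Starch enzymes, sporamin storage proteins, chitinases and phenylpropanoid enzymes are left aside below, and the account follows the other functions that the annotation of the table covers.

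The table holds 110110 contigs of an assembled transcriptome, of which 39542 carry a gene symbol and 20450 a product description. Levels are given in CPM, estimated counts scaled to 1e6 per library, and n = 3 for every mean ± SD. Total counts were 71.1 to 85.6 × 1e6 in the libraries at 4 °C and 67.6 to 86.6 × 1e6 in those at 14 °C, and a count of 0 allows up to 0.0426 CPM in a library (3 counts, considering the error of counting alone). The log2 CPM of libraries correlated at 0.98 to 0.984 within the 4 °C store, 0.975 to 0.987 within the 14 °C store and 0.71 to 0.741 between the stores, over 44443 contigs. In the edgeR quasi-likelihood test with Benjamini-Hochberg adjustment over all 94802 tested contigs, 22567 contigs were higher (23.8%) and 22790 were lower (24%) at 4 °C at a false discovery rate of 0.05. Together 47.8% of contigs were called, so a call alone says little about any single function. All 3 libraries at 4 °C lay above all 3 at 14 °C in 29.5% of tested contigs and below them in 30.8%. Contigs named by rule had to show no overlap between the stores, so their separation is no further support. Contigs with a symbol or a description were called higher more often, 32.8% of 40305, and lower about as often, 23.5%. The shares over contigs with a symbol or description are the background against which counts in gene lists are read. The median log2 fold change (4 °C over 14 °C) was -0.08 over all tested contigs and 0.13 over those with a symbol or description, and scaling by library totals alone moved it by -0.15. Sweetpotato is polyploid, so several contigs can stand for copies of the same gene, the counting may have divided reads among very similar copies, and contigs of a list are not independent of each other. P-values measure the spread between pools of roots, and no label says whether the libraries kept strand.

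Gene lists are described by how many of their tested contigs were higher, lower or not called, and by their summed level in each library. The largest shares of higher contigs were in 66.7% of NADPH oxidases and class III peroxidases, 62.2% of proteasome subunits, 60.5% of ethanol fermentation and 59.5% of branched-chain and aromatic amino acid turnover. Lower contigs had their largest shares in photoreceptors and light signalling (64.2%), the circadian clock (58.2%) and auxin response and transport (51.3%). A sum over 3 libraries against 3 cannot reach an exact permutation p (two-sided) below 0.1, so sums are given as values of the libraries and not as calls. In bulk RNA, fewer cells of a type and less RNA per cell cannot be told apart.

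**Figure D1:**
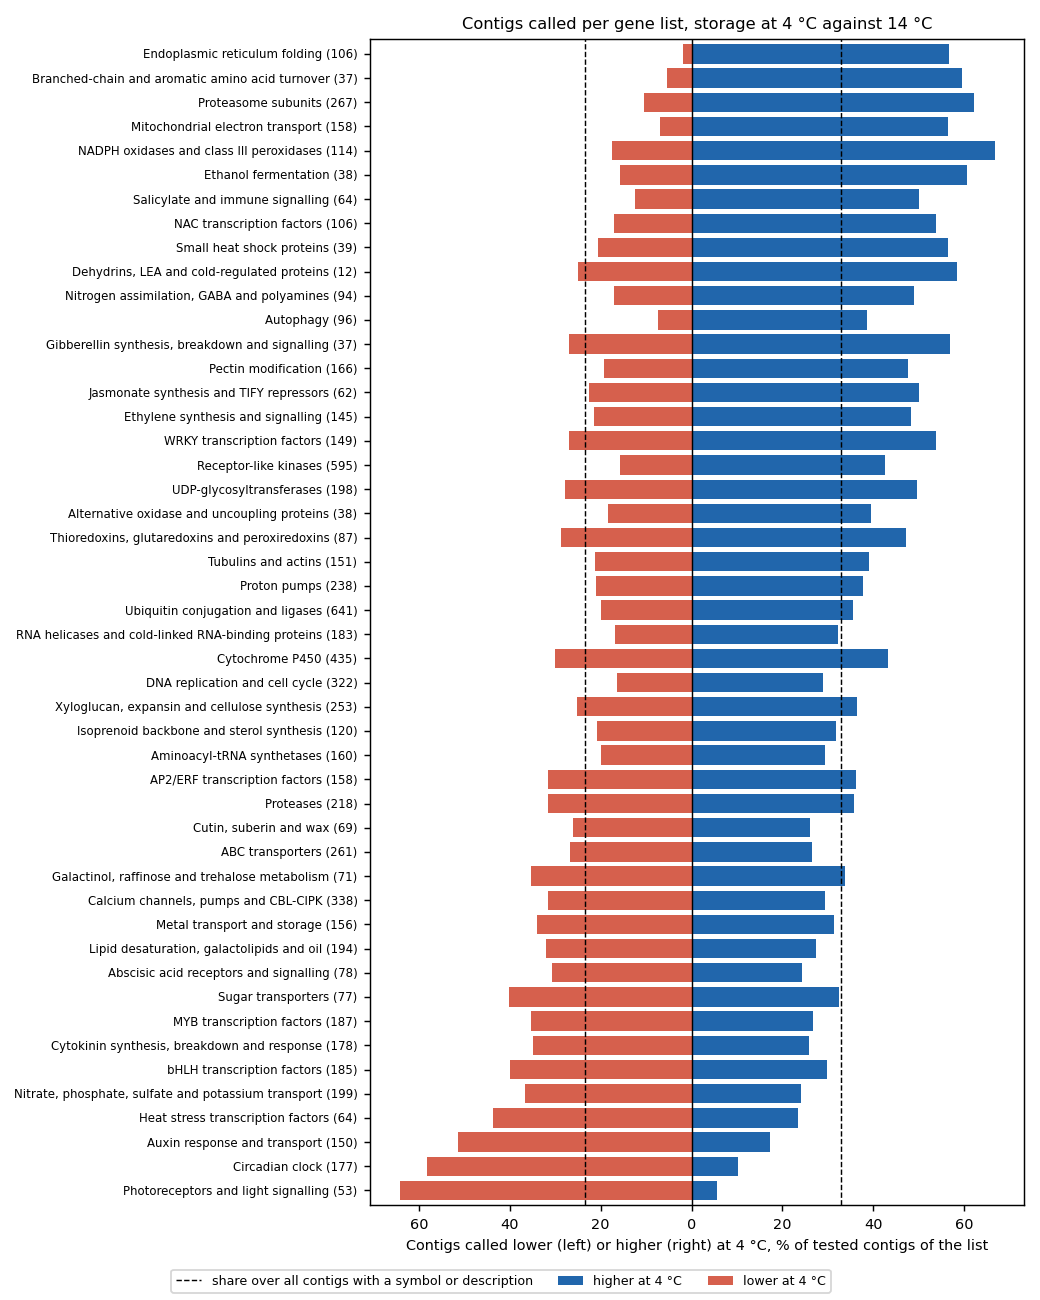
Share of tested contigs called higher (blue, right) and lower (red, left) at 4 °C in each of the 48 gene lists, with the number of tested contigs in parentheses and dashed lines at the shares over all contigs with a symbol or description (32.8% and 23.5%). Endoplasmic reticulum folding (60 higher, 2 lower) is at the top and light signalling (3 higher, 34 lower) at the bottom of the order by the difference between the shares.

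Clock and light signalling genes were lower at 4 °C. The circadian clock of plants is a loop of transcription factors that repress each other at different times of day. Of 177 tested clock contigs, 103 were lower, 18 higher and 56 not called, with a median log2 fold change of -1.05. The list summed to 1982, 2009 and 1996 CPM at 4 °C, against 4066, 3736 and 3707 CPM at 14 °C. Pseudo-response regulators, repressors of the loop, were lower in 28 of 37 contigs, GIGANTEA in 12 of 13, the morning factors LHY and CCA1 in 11 of 14, and the CDF repressors of flowering genes in 10 of 12. PRR73 (comp1193_c1), a pseudo-response regulator, had 173, 186 and 181 CPM at 4 °C, against 444, 395 and 368 CPM at 14 °C. The change was -1.16 as log2 of the ratio with SE 0.12 and adjusted p = 5.9e-06. LHY (comp98048_c2) had 36.1, 34.9 and 35.5 CPM at 4 °C and 113, 108 and 117 CPM at 14 °C. LHY, which peaks in the morning in other plants, and GIGANTEA, which peaks towards evening, were thus both low in the colder store. The labels do not state the hour of sampling. ELF3 and ELF4, partners in the evening complex, were lower in 4 of 11 contigs. COL10 (comp38725_c1), a CONSTANS-like factor, went the other way, with 12.3 ± 0.563 CPM at 4 °C and 5.06 ± 0.312 CPM at 14 °C.

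Light signalling had 34 lower and 3 higher contigs among 53, with a median of -0.89. The blue-light receptor PHOT2 (comp35464_c1) had 43.3, 40.8 and 45.2 CPM at 4 °C, against 309.8, 262 and 263 CPM at 14 °C, or -2.69 as log2 of the ratio with SE 0.13 and adjusted p = 1.3e-08. Phototropins as a group summed to 99.5, 91.9 and 109 CPM at 4 °C, against 662, 569.8 and 569 CPM at 14 °C. Every library at 4 °C was below every library at 14 °C in that sum. HY5, a leucine zipper factor that promotes light responses, was lower in 6 of 6 contigs and PIF factors, bHLH proteins bound by phytochrome, in 11 of 18. PIF3 (comp569_c11) had 32.7 ± 2.35 CPM at 4 °C and 143 ± 6.81 CPM at 14 °C. Phytochromes themselves moved less evenly, 2 higher and 3 lower of 10. Green tissue markers, photosystem and light-harvesting contigs, were lower in 46 and higher in 4 of 95 and their sums ranged over 147 to 183 CPM at 4 °C, against 534 to 554 CPM at 14 °C. Their part in the lower light signalling was not tested.

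Nuclear subunits of complexes I and IV, enzymes of ethanol fermentation and the few alternative oxidase contigs were mostly higher at 4 °C. Complex II and uncoupling proteins were called higher in smaller shares. Mitochondrial electron transport had 89 higher and 11 lower contigs of 158, with a median of 0.82. Nuclear complex I subunits were higher in 39 of 56 contigs, complex II in 10 of 26, complex III in 15 of 30 and nuclear subunits of complex IV in 22 of 33. COX5C (comp96204_c1), a small subunit of complex IV, had 207, 189 and 168 CPM at 4 °C, against 38.8, 40.3 and 50.9 CPM at 14 °C, or 2.12 as log2 of the ratio with SE 0.19 and adjusted p = 2.4e-06. Symbols of genes that plants carry in the mitochondrial genome (COX1 to COX3, the NAD series and COB) differed from this, with 4 higher and 7 lower of 15. They summed to 79.9, 87.4 and 73.5 CPM at 4 °C, against 113, 111 and 122.9 CPM at 14 °C. COB (comp11379_c1), the symbol of cytochrome b, had 3.95 ± 0.622 CPM at 4 °C and 48.3 ± 5.68 CPM at 14 °C.

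Alternative oxidase passes electrons from ubiquinol straight to oxygen, bypassing complexes III and IV, and is known to be induced by cold in plants. The list of alternative oxidase, uncoupling proteins and alternative NADH dehydrogenases (NDA and NDB symbols) had 15 higher and 7 lower contigs of 38, with a median of 0.28. All 3 tested contigs with an AOX symbol were higher, and uncoupling proteins were higher in 6 of 13. AOX1 (comp76683_c1) had 29.3, 32.4 and 24 CPM at 4 °C, against 0.18, 0.157 and 0.11 CPM at 14 °C, or 7.55 as log2 of the ratio with SE 0.23 and adjusted p = 1e-09. The level at 14 °C rested on 39 counts in 3 libraries. PUMP5 (comp81948_c2), a mitochondrial carrier of the uncoupling protein family, had 411, 413 and 330.3 CPM at 4 °C and 81.7, 92.3 and 93.2 CPM at 14 °C. Roots not stored had 755, 1753 and 558 CPM, above both stores. Both steps of ethanol fermentation differed in the same direction. Pyruvate decarboxylase, which makes acetaldehyde, was higher in all 11 contigs, summing to 627, 831 and 597 CPM at 4 °C and 97.2, 102 and 109 CPM at 14 °C. ADH1 (comp56427_c10), which reduces acetaldehyde to ethanol, had 718, 853 and 655 CPM at 4 °C, against 185, 182 and 214 CPM at 14 °C, or 1.94 as log2 of the ratio with SE 0.14 and adjusted p = 4.5e-07. For pyruvate decarboxylase the sum in every library of the colder store was above those of the warmer one. All 6 contigs described as alcohol dehydrogenase under the symbol At4g13010 were lower, with 17.8 ± 1.73 CPM at 4 °C and 97.2 ± 17 CPM at 14 °C for comp26084_c1.

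Proteasome subunits, polyubiquitin and folding proteins of the endoplasmic reticulum were mostly higher at 4 °C by count of contigs. Proteases and ubiquitin ligases were not, although the summed level of proteases was higher. The proteasome, which degrades ubiquitin-tagged proteins, had 166 higher and 28 lower contigs of 267, with a median of 0.93. The list summed to 11797, 12354 and 10866 CPM at 4 °C, against 5053, 4963 and 5428 CPM at 14 °C. In the core particle, 49 of 55 contigs were higher and 0 lower, with a median of 2.0. The ATPases of the regulatory particle (RPT) were higher in 23 of 33 and its other subunits (RPN) in 24 of 55. PBC1 (comp75988_c1), a core subunit, had 331, 317 and 251 CPM at 4 °C and 69.5, 63.5 and 94.1 CPM at 14 °C. RPT1A (comp30007_c1) had 732, 786 and 704 CPM at 4 °C, against 275, 274 and 306 CPM at 14 °C. Log2 fold changes of PBC1 and RPT1A were 1.99 ± 0.19 and 1.38 ± 0.11 (SE, adjusted p = 3.5e-06 and 5.9e-07). Not every subunit followed: contigs of the small subunit DSS1 were lower in 7 of 11, and RPT3 (comp78667_c2) had 13.5 ± 0.965 CPM at 4 °C and 89.8 ± 8.79 CPM at 14 °C.

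Contigs described as polyubiquitin (ubiquitin C) were higher in 122 of 146 and lower in 0; these sequences are highly alike, so reads may be shared between them. Ubiquitin conjugation and ligases had 227 higher and 127 lower contigs of 641, close to the background shares. Within it, PUB ligases were higher in 56 and lower in 11 of 121, and SINAT ligases higher in 2 and lower in 9 of 22. ATL23 (comp42467_c1), a membrane-bound RING ligase, had 4.9, 3.98 and 3.92 CPM at 4 °C and 92.2, 85 and 107 CPM at 14 °C. Autophagy, which delivers cell contents to the vacuole, had 37 higher and 7 lower contigs of 96; ATG8C (comp85245_c1), a protein of the autophagosome membrane, had 138 ± 8.81 CPM at 4 °C and 65.5 ± 9.51 CPM at 14 °C. Scaling by library totals alone gave 11 lower autophagy contigs. Proteases as a list were mixed by count, 78 higher and 69 lower of 218. Their sums were 7649, 7440 and 7572 CPM at 4 °C, against 3766, 3643 and 3746 CPM at 14 °C. Cysteine proteases of the RD21 and RD19 type were higher in 13 of 16, whereas subtilisins of the ARA12 type were lower in 34 of 59. RD21A (comp76329_c1) had 1579, 1538 and 1499.9 CPM at 4 °C, against 421, 434 and 436 CPM at 14 °C, or 1.84 as log2 of the ratio with SE 0.10 and adjusted p = 3.6e-08. These values lay within a narrow range in each store.

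Folding in the endoplasmic reticulum had the lowest share of lower contigs among the gene lists, with 60 contigs higher and 2 lower among 106 and a median log2 ratio of 0.89. BiP, the Hsp70 of this compartment, was higher in all 7 contigs, and its sums were 214, 293 and 194 CPM at 4 °C and 75.9, 74.1 and 65.2 CPM at 14 °C. AERO1 (comp90539_c1), the oxidase that supplies disulfide bonds, had 76, 87.9 and 61.7 CPM at 4 °C, against 15, 16 and 13.6 CPM at 14 °C, or 2.34 as log2 of the ratio with SE 0.15 and adjusted p = 1.2e-07. Calreticulin and calnexin, chaperones of glycoproteins, were higher in 14 of 21. Vesicle traffic moved alongside: the KOG class of intracellular trafficking, secretion and vesicular transport had 658 higher and 173 lower contigs of 1458, and the alpha subunit of coatomer, which coats vesicles between the Golgi apparatus and the endoplasmic reticulum, was higher in 24 of 31. Transfer RNA synthetases were near the background, 47 higher and 32 lower of 160, as were RNA helicases and cold-linked RNA-binding proteins, 59 higher and 31 lower of 183.

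Transcription factor families differed in direction. WRKY factors, many of which act in defence, were higher in 80 and lower in 40 of 149 contigs, and NAC factors higher in 57 and lower in 18 of 106. MYB factors (50 higher, 66 lower of 187) and bHLH factors (55 higher, 74 lower of 185) leaned towards falls. WRKY31 (comp81054_c6) had 175, 229 and 162 CPM at 4 °C, against 0.202, 0.425 and 0.275 CPM at 14 °C, or 9.29 as log2 of the ratio with SE 0.50 and adjusted p = 2.7e-07. Replicate 2 was the highest at 4 °C, and all 8 contigs of the symbol were higher. WRKY33, which in Arabidopsis controls defence against necrotrophic fungi, was higher in all 15 contigs, summing to 255, 339.7 and 244 CPM at 4 °C and 36.7, 37.1 and 32.4 CPM at 14 °C. NAC029 (comp96236_c2) had 889.9, 881 and 859 CPM at 4 °C and 257, 291 and 257 CPM at 14 °C, whereas NAC072 (comp87794_c16), a stress-responsive factor, had 38.3, 37.9 and 30.3 CPM at 4 °C and 148, 153 and 152 CPM at 14 °C. These contigs differed in opposite directions. AP2/ERF factors were split, 57 higher and 50 lower of 158. DREB factors, the family that includes the cold-induced CBF activators, were higher in 4 and lower in 6 of 16, and their sums were 91.3 to 101 CPM at 4 °C and 83.7 to 87.6 CPM at 14 °C. Within the ERF group that senses oxygen in Arabidopsis, RAP2-12 (comp73929_c1) had 265 ± 19.1 CPM at 4 °C and 90.3 ± 8.73 CPM at 14 °C, while RAP2-3 (comp28852_c1) had 231 ± 9.37 CPM at 4 °C and 763 ± 25.9 CPM at 14 °C. The first rose and the other fell, with log2 fold changes of 1.55 ± 0.14 and -1.72 ± 0.13 (SE, adjusted p = 1.8e-06 and 5.8e-07).

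Hormone genes separated by hormone. For auxin, 77 contigs were lower and 26 higher of 150, with a median of -0.60. Aux/IAA repressors, which auxin itself induces and which block auxin response factors, were lower in 27 and higher in 0 of 34. They summed to 357, 322 and 320.1 CPM at 4 °C, against 1031, 1043 and 1238 CPM at 14 °C. Auxin response factors were lower in 36 and higher in 8 of 66. IAA27 (comp78058_c1) had 38.8, 36.5 and 42.8 CPM at 4 °C and 143, 158 and 150.1 CPM at 14 °C, or -1.93 as log2 of the ratio with SE 0.12 and adjusted p = 1.3e-07. In contrast, all 6 contigs of the LAX carriers, which bring auxin into cells, were higher. LAX2 (comp100142_c1) had 54.3, 42.5 and 57.2 CPM at 4 °C, against 5.2, 4.8 and 5.41 CPM at 14 °C, or 3.32 as log2 of the ratio with SE 0.15 and adjusted p = 1.1e-08. The receptor TIR1 (comp23376_c3) had 134 ± 5.33 CPM at 4 °C and 33.4 ± 1.17 CPM at 14 °C. A related receptor, AFB2 (comp35446_c1), had 115 ± 3.3 CPM at 4 °C and 174 ± 4.12 CPM at 14 °C, lower where TIR1 was higher.

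Gibberellin genes differed by step. Gibberellin 2-oxidases, which inactivate the hormone, were higher in all 8 contigs, and GA2OX1 (comp89137_c1) had 40.4, 39.7 and 33.9 CPM at 4 °C, against 0.308, 0.123 and 0.399 CPM at 14 °C. Counts at 14 °C were few for it, 69 over 3 libraries. KAO1 (comp14842_c1), an oxidase of gibberellin synthesis, had 1.68, 1.1 and 1.87 CPM at 4 °C and 32.5, 31.4 and 39.7 CPM at 14 °C, or -4.48 as log2 of the ratio with SE 0.20 and adjusted p = 8.9e-09. The receptor GID1B (comp36483_c1) had 401, 370.4 and 369.6 CPM at 4 °C and 81, 77.8 and 78.4 CPM at 14 °C, or 2.27 as log2 of the ratio with SE 0.10 and adjusted p = 9.1e-09. Cytokinin receptors of the AHK type were lower in 13 and higher in 0 of 20. AHK4 (comp13874_c1) had 15, 11.9 and 14.3 CPM at 4 °C, against 116, 102 and 112 CPM at 14 °C. The cytokinin-degrading dehydrogenase CKX6 (comp86064_c1) had 21.7, 24.6 and 21.2 CPM at 4 °C and 13 counts over the 3 libraries at 14 °C. The receptor was low and the degrading enzyme high at 4 °C. Without replicate 1 at 14 °C the log2 fold change of CKX6 was 9.44 in place of 8.76. LOG enzymes, which release active cytokinins, were higher in 15 and lower in 5 of 24.

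Ethylene genes were higher in 70 and lower in 31 of 145 contigs. Among the 145, 17 are matched through their description and carry the symbols SRG1 or F6'H1 of other oxygenases. Of these 17, 15 were higher and 0 lower, so they add to the count of rises. Contigs with an ACO symbol were higher in 11 and lower in 6 of 18. ACO1 (comp87910_c1), the oxidase of the last step of ethylene synthesis, had 253, 219 and 200.1 CPM at 4 °C, against 1.5, 1.32 and 2.02 CPM at 14 °C, or 7.12 as log2 of the ratio with SE 0.24 and adjusted p = 1.6e-09. The receptor ETR1 (comp93169_c2) had 298, 345 and 296 CPM at 4 °C and 53.4, 46.4 and 53.3 CPM at 14 °C, while EBF1 (comp30788_c5), the F-box protein that removes the EIN3 activator, had 739, 885 and 655 CPM at 4 °C and 264, 247 and 225 CPM at 14 °C. Both are negative components of the pathway, and both were higher in the colder store. EIL1 (comp5953_c1), an activator of the EIN3 family, had 108 ± 9.1 CPM at 4 °C and 262 ± 26.3 CPM at 14 °C, while EIN3 itself (comp12020_c11) had 1321 ± 65.8 CPM at 4 °C and 891 ± 45.9 CPM at 14 °C. For abscisic acid, PYL receptors were higher in 13 and lower in 0 of 23, the HAB1 and ABI phosphatases they inhibit lower in 5 of 6, and the ABF activators downstream lower in 11 of 15. The dioxygenase that opens abscisic acid synthesis from carotenoids was lower in 14 and higher in 1 of 15. The 8'-hydroxylase of abscisic acid breakdown was lower too, in 4 of 5. Xanthoxin dehydrogenase was higher in 12 and lower in 7 of 24, and abscisic-aldehyde oxidase higher in 3 and lower in 4 of 11. These data hold no level of the hormone. PYL9 (comp76418_c1) had 130.2 ± 15.2 CPM at 4 °C and 37.2 ± 7.52 CPM at 14 °C, while ABF2 (comp36111_c2) had 40.5 ± 4.67 CPM at 4 °C and 102 ± 9.38 CPM at 14 °C. TIFY repressors of jasmonate signalling were higher in 20 of 25, and oxophytodienoate reductases, which act late in jasmonate synthesis, in all 7. Contigs with a LOX symbol were lower in 8 and higher in 1 of 13, with a median of -2.18. The higher one, LOX1.5 (comp90607_c1), was the most abundant called one. It had 575, 674 and 647 CPM at 4 °C and 159, 146 and 158 CPM at 14 °C. Whether LOX1.5 acts in jasmonate synthesis was not tested. NPR receptors of salicylate were higher in 11 and lower in 0 of 16.

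**Figure D2:**
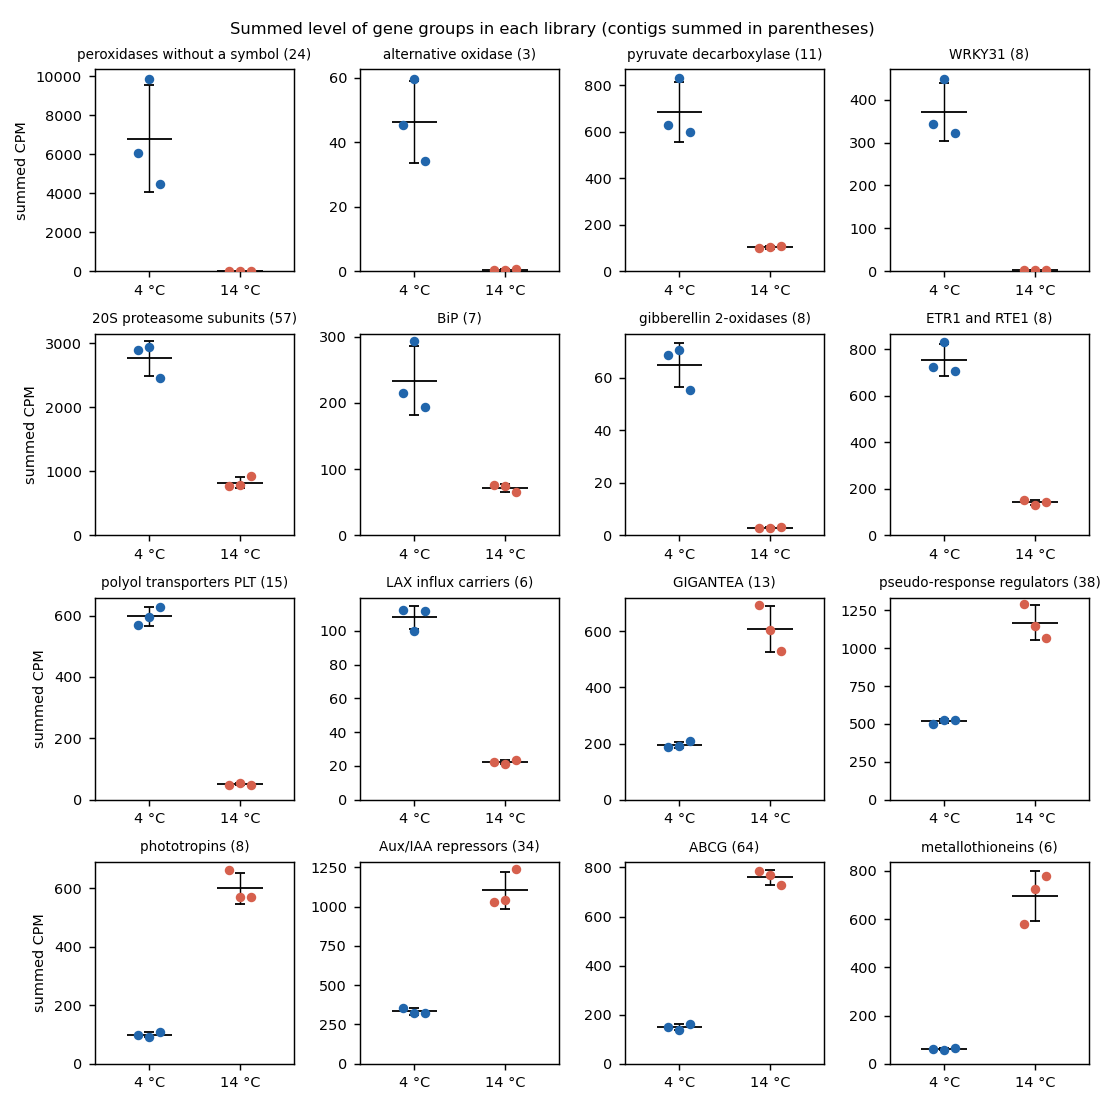
Summed CPM of 16 groups of contigs in each library, with blue points for the 3 libraries at 4 °C and red points for the 3 at 14 °C, and the mean and SD in black. The colder store is above the warmer one in the first 10 panels, from peroxidases without a symbol (6798 ± 2765 and 10.1 ± 0.139 CPM) to LAX carriers, and below it in the last 6, from GIGANTEA (195 ± 11 and 609.95 ± 82.5 CPM) to metallothioneins.

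Receptor kinases at the cell surface were higher in 253 and lower in 94 of 595 contigs, while their summed level was alike in both stores, 4324, 4754 and 4054 CPM at 4 °C and 4179.7, 4412 and 4430.2 CPM at 14 °C. The most abundant contig at least 2-fold lower, GSO2 (comp80722_c2), a leucine-rich repeat kinase, had 167, 126 and 169.7 CPM at 4 °C, against 1667, 1982 and 1924 CPM at 14 °C, or -3.59 as log2 of the ratio with SE 0.17 and adjusted p = 1.4e-08. GSO2 made up a large part of the summed level at 14 °C and a small part at 4 °C, so it weighs on the likeness of the sums. Cysteine-rich receptor kinases were higher in 107 and lower in 39 of 276 contigs. Their sums were 1551 to 1872 CPM at 4 °C and 935 to 962 CPM at 14 °C. Wall-associated kinases, which bind pectin, were higher in 17 and lower in 1 of 30. SD11 (comp102584_c3), a kinase with an S-domain, had 154, 156 and 145 CPM at 4 °C and 19.2, 19.1 and 18.2 CPM at 14 °C. Calcium transport was split by family. The vacuolar channel TPC1 had 19 lower and 0 higher contigs of 26. Glutamate receptor channels of the GLR3 group were lower in 27 of 46, whereas those of the GLR2 group were higher in 15 of 20. The pumps and exchangers that remove calcium from the cytosol were higher in 25 and lower in 11 of 52 contigs for ACA pumps, and higher in 8 and lower in 1 of 13 for CAX exchangers. CAX2 (comp8706_c2) had 86.4, 101 and 76.1 CPM at 4 °C and 16.9, 17.8 and 16.2 CPM at 14 °C, while ACA10 (comp92947_c1) had 132, 150.1 and 143 CPM at 4 °C and 59, 50.6 and 41.3 CPM at 14 °C. Protein kinases that bind calcium sensors fell in part: CIPK6 (comp29753_c4) had 158, 150.04 and 151 CPM at 4 °C, against 601, 551 and 669.8 CPM at 14 °C, while CIPK11 (comp67196_c1) had 231, 248 and 207 CPM at 4 °C and 80.5, 82.8 and 92.1 CPM at 14 °C.

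Oxidative enzymes of the cell wall gave the widest gap between the stores among the gene lists. Class III peroxidases oxidise phenols in the wall with hydrogen peroxide, and NADPH oxidases (RBOH) make superoxide at the plasma membrane. The joint list was higher in 76 and lower in 20 of 114 contigs, with a median of 2.14, and summed to 6986, 10959 and 5307 CPM at 4 °C, against 397, 404 and 399 CPM at 14 °C. Replicate 2 was the highest of the colder store and replicate 3 the lowest. All 24 contigs described as peroxidase without a symbol were higher. The most abundant, comp39288_c3, had 2695, 4202 and 1935 CPM at 4 °C and 3.54, 3.85 and 3.87 CPM at 14 °C, or 9.62 as log2 of the ratio with SE 0.51 and adjusted p = 3.2e-07. RBOH contigs were higher in 24 and lower in 12 of 40, and their sums were 169.7, 208 and 176 CPM at 4 °C and 107, 114 and 91.8 CPM at 14 °C. Glutaredoxins and other thiol redox proteins were higher in 41 and lower in 25 of 87, and PRXIIB (comp82727_c1), a peroxiredoxin of the cytosol, had 455 ± 48.3 CPM at 4 °C and 216 ± 52.5 CPM at 14 °C.

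The mevalonate pathway, the source of sesquiterpenes and sterols, and the furanoterpenoids that sweetpotato roots are known to make after injury or infection, was higher at its controlled step. The whole list of isoprenoid backbone and sterol synthesis was near the background, 38 higher and 25 lower of 120 contigs. HMG-CoA reductase was higher in 11 and lower in 1 of 18 contigs. HMG-CoA synthase was higher in 5 and lower in 0 of 12, and farnesyl diphosphate synthase higher in 3 and lower in 1 of 8. HMG1 (comp78050_c1) had 218, 588 and 149.8 CPM at 4 °C, against 2.58, 2.67 and 3.0 CPM at 14 °C, or 6.86 as log2 of the ratio with SE 0.55 and adjusted p = 8.1e-06. Replicate 2 at 4 °C was far above the others, and without it the log2 fold change was 6.09. FPS1 (comp105843_c1), which makes farnesyl diphosphate, had 275, 409.5 and 194 CPM at 4 °C and 15.2, 17.7 and 17.6 CPM at 14 °C, in the same order of libraries. HMGS (comp550_c2), the enzyme before the reductase, had 117, 257 and 61.8 CPM at 4 °C and 45.7, 42.1 and 49.4 CPM at 14 °C. Its log2 fold change of 1.67 ± 0.42 (SE, adjusted p = 0.0092) was 0.99 without that replicate, while an edgeR fit restricted to both stores gave it an adjusted p of 0.057. The branch enzyme that makes squalene for sterols, farnesyl-diphosphate farnesyltransferase (comp25366_c1), had 113, 103 and 101 CPM at 4 °C, against 218, 231 and 248 CPM at 14 °C. HMG1 and FPS1, which act before the branch, rose, and the squalene enzyme fell. Cytochrome P450 contigs were higher in 188 and lower in 131 of 435; members of CYP71A and CYP71D were higher in 44 and lower in 14 of 71. Glycosyltransferases that attach sugars to small molecules were higher in 98 and lower in 55 of 198, including all 12 UGT73B contigs, and UGT85A2 (comp74188_c1) had 574, 582 and 701 CPM at 4 °C and 39.3, 36.1 and 26.4 CPM at 14 °C.

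The place of replicate 2 at 4 °C was general among large rises. Of 935 contigs called at least 16-fold higher with at least 5 CPM at 4 °C, 76.6% were highest in replicate 2 and 74.9% lowest in replicate 3. Their median level was 93.7%, 125% and 80.5% of the group mean in replicates 1, 2 and 3. Among 4031 contigs called 2-fold to 4-fold higher, 55.7% were highest in replicate 2 and the corresponding levels were 102%, 105% and 92.3%. For 584 contigs at least 16-fold lower, with at least 5 CPM at 14 °C, replicate 1 was the highest at 4 °C in 53.1%. Separately, 51 contigs with at least 5 CPM exceeded both other libraries at 4 °C over 4 times in replicate 2, against 0 in replicate 1 and 3 in replicate 3. Among those with a symbol, chosen after their values were seen, were the invertase INV1 (comp89163_c2) with 16, 111 and 7.07 CPM in replicates 1, 2 and 3 at 4 °C and the ethylene synthesis enzyme ACS1 (comp77565_c1) with 3.83, 21.9 and 0.736 CPM. At 14 °C these had means of 0.0628 and 0.553 CPM. The libraries at 4 °C therefore differed in the size of the largest rises, and no label separates replicate 2 from the others. Each library comes from its own pool, so differences between pools and between library preparations cannot be told apart.

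**Figure D3:**
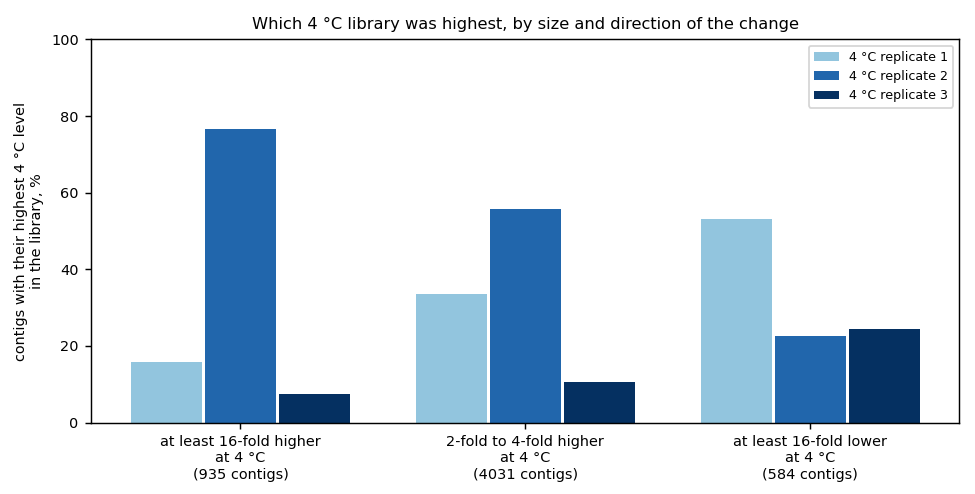
Share of contigs (%) whose highest level at 4 °C was in replicate 1, 2 or 3, for 935 contigs at least 16-fold higher, 4031 contigs 2-fold to 4-fold higher and 584 contigs at least 16-fold lower at 4 °C. Replicate 2 was the highest for 76.6% of the large rises and 22.6% of the large falls.

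Sugar transporters differed by family. SWEET exporters of sugars were lower in 14 and higher in 4 of 21 contigs, and SWEET15 (comp69683_c1) had 1.09, 0.984 and 0.698 CPM at 4 °C, against 69.4, 100.1 and 87.1 CPM at 14 °C, or -6.53 as log2 of the ratio with SE 0.21 and adjusted p = 1.2e-09. STP carriers, which take hexoses into cells, were higher in 9 and lower in 0 of 12. SUC carriers, which take sucrose into cells, were lower in 5 and higher in 1 of 7, with a median of -0.76. Yet their sums overlapped, 85.7 to 91.4 CPM at 4 °C and 83.2 to 95.4 CPM at 14 °C. Polyol transporters (PLT) were higher in 9 and lower in 5 of 15, and PLT5 (comp108941_c3) had 221, 233 and 261 CPM at 4 °C, against 0.753, 0.816 and 0.495 CPM at 14 °C, or 8.42 as log2 of the ratio with SE 0.23 and adjusted p = 6e-10. MSSP2 (comp41742_c2), a sugar carrier of the vacuolar membrane, had 51.6, 59.98 and 57.1 CPM at 4 °C and 315, 274 and 297 CPM at 14 °C. SWEET15 and MSSP2 were thus lower and PLT5 higher at 4 °C. Proton pumps differed in direction too. PMA4 (comp108361_c1), a plasma membrane proton pump, had 986, 1462 and 1117 CPM at 4 °C, against 82.4, 75 and 51.2 CPM at 14 °C, or 4.09 as log2 of the ratio with SE 0.21 and adjusted p = 2.7e-08, while contigs of its family were higher in 8 and lower in 13 of 31. The V-ATPase, which acidifies vacuoles, was higher in 52 and lower in 14 of 112. Inorganic pyrophosphatases, the soluble and proton-pumping kinds together, were lower in 19 and higher in 5 of 42.

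Ammonium transporters were higher in all 5 contigs, and AMT1-1 (comp98452_c1) had 57.6, 76 and 58.1 CPM at 4 °C and 9.56, 10.6 and 8.41 CPM at 14 °C. The nitrate transporter NRT1.4 (comp14184_c3) had 1.89, 0.834 and 1.84 CPM at 4 °C, against 134, 111 and 127 CPM at 14 °C, or -6.35 as log2 of the ratio with SE 0.29 and adjusted p = 2e-08. SULTR3;5 (comp103505_c1), of the sulfate transporter family, had 289, 259 and 333 CPM at 4 °C and 13.2, 83.7 and 29.4 CPM at 14 °C. Its 14 °C libraries were spread widely, and the log2 fold change of 2.8 ± 0.57 (SE) was 3.78 without replicate 2 at 14 °C. POT potassium transporters were lower in 20 and higher in 5 of 58, and vacuolar TPK channels lower in 7 of 9. ABC transporters were balanced as a list, 69 higher and 70 lower of 261, but the ABCG subfamily was lower in 33 and higher in 9 of 56. ABCG22 (comp33964_c1) had 5.86, 4.02 and 6.8 CPM at 4 °C and 254, 239.9 and 209 CPM at 14 °C, while ABCB19 (comp73640_c5), an auxin efflux carrier in Arabidopsis, had 168, 203 and 194 CPM at 4 °C and 32.6, 26.1 and 22.1 CPM at 14 °C. Metallothioneins, small proteins that bind copper and zinc, were lower in all 6 contigs and summed to 63, 58.5 and 66 CPM at 4 °C, against 579, 727 and 781 CPM at 14 °C. Ferritins, which store iron, were higher in 8 and lower in 1 of 9, yet the contig that was lower, comp819_c2, was the most abundant called one, with 61.5, 61.2 and 56.9 CPM at 4 °C and 235, 229.8 and 288 CPM at 14 °C. Count and sum therefore point in opposite directions for ferritin, which summed to 134 ± 5.75 CPM at 4 °C, against 276 ± 33.5 CPM at 14 °C.

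Cell wall genes differed by class. XTH enzymes, which cut and rejoin xyloglucan, were higher in 38 and lower in 13 of 84 contigs, and XTH23 (comp81887_c1) had 659, 592 and 733 CPM at 4 °C, against 95.4, 121 and 89 CPM at 14 °C, or 2.7 as log2 of the ratio with SE 0.15 and adjusted p = 4e-08. Alpha-expansins, which loosen walls during growth, were lower in 10 and higher in 3 of 20. EXPA4 (comp14592_c1) had 4.6, 5.33 and 3.92 CPM at 4 °C and 36.6, 38.6 and 39.2 CPM at 14 °C. Cellulose synthases (CESA) were even, 15 higher and 17 lower of 76, while the related CSLE and CSLD proteins were higher in 11 of 12 and 8 of 10. For pectin, PME symbols (pectin methylesterases) were higher in 19 and lower in 0 of 33. The most abundant contig of the pectin list at least 2-fold higher, the pectinesterase comp101357_c1, had 1356, 1116 and 1452 CPM at 4 °C, against 193, 229.9 and 205 CPM at 14 °C, or 2.65 as log2 of the ratio with SE 0.14 and adjusted p = 3.3e-08. The GAUT family, which builds pectin chains, was higher in 28 and lower in 11 of 58 contigs, with sums of 587, 616 and 552 CPM at 4 °C and 688, 658 and 714 CPM at 14 °C. GAUT4 (comp76211_c2), among its lower contigs, had 13.5, 11.6 and 12.8 CPM at 4 °C and 109, 115 and 134 CPM at 14 °C. Among cytoskeletal genes, 59 contigs were higher and 32 lower of 151; the actin AC58 (comp90600_c4) had 393, 334 and 372 CPM at 4 °C, against 1263, 1077 and 1614 CPM at 14 °C, and the actin ACT7 (comp109894_c4) had 226, 244 and 219.6 CPM at 4 °C and 93.3, 88.3 and 96.9 CPM at 14 °C. Xylem vessel markers were higher in 19 and lower in 2 of 30 contigs, with sums of 219 to 244 CPM at 4 °C and 96.8 to 106 CPM at 14 °C. Their part in the wall genes was not tested.

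Proteins and sugars usually linked to cold tolerance did not move in a single direction. Dehydrins, LEA and cold-regulated proteins were few in the annotation, 12 tested contigs, 7 higher and 3 lower. The list summed to 275 to 304 CPM at 4 °C, against 112 to 144 CPM at 14 °C. Contigs of COR413 and LTI6 made up most of the list and of its sums, so it says little about dehydrins and LEA proteins. COR413 was higher in 4 and lower in 1 of 7, with sums of 92.3 to 107 CPM at 4 °C and 49.6 to 62.7 CPM at 14 °C. All 3 contigs of LTI6, small membrane proteins induced by low temperature in rice, were higher, and LTI6A (comp48207_c4) had 92.6, 99.7 and 80.7 CPM at 4 °C and 28.4, 33.2 and 40.2 CPM at 14 °C. Galactinol synthase, which starts the raffinose family of protective sugars, was lower in 2 of 3 contigs at 1.42 to 3.61 CPM in sum at 4 °C and 7.01 to 10.7 CPM at 14 °C. In trehalose metabolism TPS11 (comp101598_c1), whose description is trehalose-phosphatase, had 256, 303 and 243 CPM at 4 °C, against 1.27, 1.33 and 0.936 CPM at 14 °C, or 7.82 as log2 of the ratio with SE 0.32 and adjusted p = 1.3e-08. TPS1 (comp30513_c1), the trehalose-phosphate synthase, had 21.5 ± 0.219 CPM at 4 °C and 47 ± 3.58 CPM at 14 °C, while trehalase was lower in 6 of 7. Contigs of this list with a TPS symbol were higher in 9 and lower in 6 of 19. The galactinol, raffinose and trehalose list as a whole had 24 higher and 25 lower contigs of 71. It summed to 1415, 1485 and 1507 CPM at 4 °C, against 997, 959 and 923 CPM at 14 °C. The count of lower contigs in this list was 16 without replicate 2 at 4 °C. Small heat shock proteins were higher in 22 and lower in 8 of 39 contigs, but summed to 244, 259 and 205 CPM at 4 °C, against 393, 382 and 528 CPM at 14 °C. Among contigs with at least 1 CPM in 3 libraries, 12 were higher. HSP18.2 (comp54629_c1) had 55.9, 54.8 and 44.7 CPM at 4 °C and 168, 156 and 234 CPM at 14 °C. Heat stress factors were lower in 28 and higher in 15 of 64, with HSFB3 (comp90262_c6) an exception at 139.5, 139.6 and 115 CPM at 4 °C and 11.9, 12.9 and 15.1 CPM at 14 °C.

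Nitrogen metabolism was higher in 46 and lower in 16 of 94 contigs. Arginine decarboxylase, which starts polyamine synthesis, was higher in all 5 contigs, and comp26226_c6 had 971, 1409.7 and 949.6 CPM at 4 °C, against 317, 216 and 240.1 CPM at 14 °C, or 2.11 as log2 of the ratio with SE 0.21 and adjusted p = 6.2e-06. Glutamate dehydrogenase GDHB (comp103978_c1) had 106, 120.04 and 105 CPM at 4 °C and 9.48, 12.9 and 12.6 CPM at 14 °C. Enzymes in the list of branched-chain and aromatic amino acid turnover were higher in 22 and lower in 2 of 37, with the transaminase BCAT higher in all 6. The list does not hold all such enzymes. By description, tyrosine aminotransferase was higher in 0 and lower in 3 of 5 contigs. Aromatic-L-amino-acid decarboxylase was higher in 1 and lower in 3 of 5. Synthesis of branched-chain precursors leaned towards rises: contigs of the C5-branched dibasic acid term, isopropylmalate dehydratase and acetolactate synthase, were higher in 29 and lower in 4 of 41. The small subunit of acetolactate synthase differed from this, with 2 higher and 4 lower of 10. Vitamin pathways split. Pyridoxine biosynthesis protein was higher in all 7 contigs and the vitamin B6 term in 25 of 34. ThiC, of thiamine synthesis, was lower in all 4, and folylpolyglutamate synthase, which adds glutamates to folates, lower in 6 and higher in 0 of 13.

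Among contigs called at least 8-fold higher (4.14% of those tested) or lower (4.53%), the most abundant per length were taken by mean TPM in the higher store. On the higher side these held 3 contigs of formate dehydrogenase (FDH1), a mitochondrial enzyme that oxidises formate, and 3 with the symbol HACL of 2-hydroxyacyl-CoA lyase. FDH1 (comp55177_c3) had 1724, 2039 and 1617 CPM at 4 °C, against 105, 121 and 136 CPM at 14 °C, or 3.9 as log2 of the ratio with SE 0.17 and adjusted p = 6.3e-09. HACL (comp5673_c15) had 669, 922 and 574 CPM at 4 °C and 26.7, 29.98 and 29.3 CPM at 14 °C, or 4.66 as log2 of the ratio with SE 0.18 and adjusted p = 3.1e-09. Replicate 2 was the highest at 4 °C for both. GGL4 (comp44084_c1), an endo-1,3-beta-glucanase, had 3567, 4110.4 and 3076 CPM at 4 °C and 20.3, 24.3 and 22.6 CPM at 14 °C. TPM-1 (comp76756_c1) had 4292, 4708 and 3555 CPM at 4 °C, against 4.59, 5.36 and 4.87 CPM at 14 °C, or 9.73 as log2 of the ratio with SE 0.47 and adjusted p = 1.2e-07. ELI3 (comp107557_c15), described as mannitol dehydrogenase, had 73.9, 163 and 66.3 CPM at 4 °C and 79 counts over the libraries at 14 °C. Outside this set, the most abundant called contig with an SCPL symbol, SCPL18 (comp86413_c1), had 562, 574 and 507 CPM at 4 °C and 0.562, 0.559 and 0.84 CPM at 14 °C. Its symbol is that of a serine carboxypeptidase-like protein and its description that of a sinapoyltransferase, so what it encodes is not settled by the table.

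On the lower side the set held 3 contigs of the metallothionein MT2A, of which comp37664_c7 had 29.1, 25.4 and 29.3 CPM at 4 °C and 249, 314 and 331 CPM at 14 °C. ARG2 (comp102337_c1), the symbol of an auxin-induced protein of mung bean, had 32.2, 31 and 26.9 CPM at 4 °C, against 769, 820.5 and 889.7 CPM at 14 °C, or -4.78 as log2 of the ratio with SE 0.23 and adjusted p = 2.6e-08. THI1 (comp35024_c1), which makes the thiazole part of thiamine, had 16.5, 11.2 and 14.4 CPM at 4 °C and 558, 431 and 560.1 CPM at 14 °C, while ThiC, described above, makes the pyrimidine part. The log2 fold change of THI1 was -5.2 ± 0.22 (SE, adjusted p = 7.2e-09). The 2 contigs with the symbol ermp1, a metallopeptidase of the endoplasmic reticulum in animals, varied between the libraries at 4 °C. Of these, comp4294_c7 had 37.9, 26.7 and 85.6 CPM at 4 °C and 1476, 1430.03 and 1135 CPM at 14 °C. Without replicate 3 at 4 °C its log2 fold change was -5.37 in place of -4.75. The set also held 2 contigs of the kinase CIPK7; comp89972_c1 had 68, 67.4 and 54.4 CPM at 4 °C and 524, 447 and 550.4 CPM at 14 °C.

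**Figure D4:**
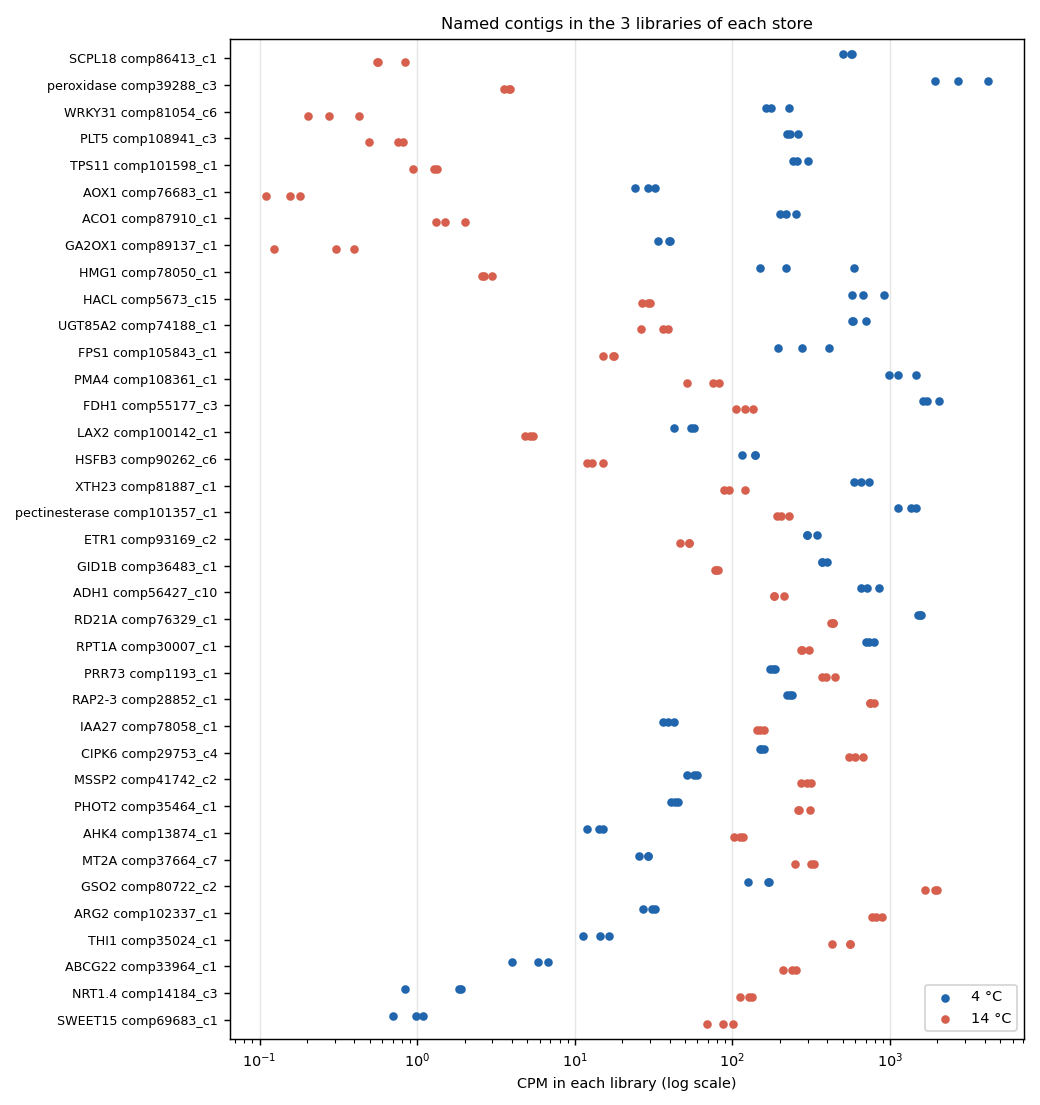
CPM (log scale) of named contigs in the 3 libraries at 4 °C (blue, upper row of each pair) and the 3 at 14 °C (red), ordered by log2 fold change. The order runs from the contig with the symbol SCPL18 (9.72), described as a sinapoyltransferase, at the top to SWEET15 (-6.53) at the bottom. Separation of the stores was a condition for contigs named by rule.

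By KEGG pathway, 203 terms had at least 30 tested contigs. The largest shares higher were in systemic lupus erythematosus (81.4%), whose contigs here are mainly core histones, the neuroactive ligand term (77.4%), which holds only coatomer contigs, vitamin B6 (73.5%) and C5-branched dibasic acids (70.7%). Tropane, piperidine and pyridine alkaloids followed (67.5%), where tropine dehydrogenase was higher in 36 of 47. Next came phenylalanine metabolism, the proteasome, flavonoid biosynthesis, the ribosome and PPAR signalling, the last of which rests on ubiquitin. The largest shares lower were in antenna proteins (53.8%), carotenoid biosynthesis (50.5%), plant circadian rhythm (46.8%), folate (45.2%) and thiamine (41.9%). Starch and sucrose, glucosinolates, photosynthesis, ether lipids and isoquinoline alkaloids completed them. Desulfoglucosinolate sulfotransferase was lower in 6 of 7, and phospholipase D, in the ether lipid term, lower in 25 and higher in 12 of 57. A pathway name from animals or disease reflects shared proteins only. Names of glucosinolate and alkaloid pathways and enzymes come from the annotation, and do not show that these roots make such compounds. In the KOG classes, translation (43.1% higher, 12.5% lower), energy production (44.1% and 15.6%) and trafficking (45.1% and 11.9%) leaned towards rises. Transcription (22% higher, 28.4% lower) and signal transduction (24.9% and 28.9%) held larger shares of falls.

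Some transcripts were found in a single store. With no count at 14 °C and at least 1 CPM in each library at 4 °C there were 62 contigs, 30 of them with a symbol, and 48 had a count in roots not stored. In the reverse case there were 32, 18 with a symbol, and 32 had a count in roots not stored. The members named next were chosen after their values were seen. GLP6 (comp80205_c1), of the germin-like proteins, had 15 ± 1.86 CPM at 4 °C, the zinc finger factor ZAT11 (comp103583_c1) had 4.59 ± 1.12 CPM and the calcium pump ACA13 (comp86332_c2) had 1.6 ± 0.287 CPM. At 14 °C alone were ST3 (comp14380_c1) with 12.6 ± 1.36 CPM, RACK1B (comp16633_c1), a scaffold protein of ribosomes, with 6.35 ± 1.45 CPM, and CYP86B1 (comp45138_c1), a hydroxylase of suberin synthesis, with 5.66 ± 0.827 CPM. Against a floor of 3 counts per library CYP86B1 was at least 144-fold lower at 4 °C. Contigs of the same symbol could differ: EXLB1, expansin-like, had comp81379_c1 with 1.94 ± 0.503 CPM at 4 °C alone and comp52358_c1 with 10.4 ± 2.39 CPM at 14 °C alone. A contig absent in a store does not show that the gene is silent, since other copies of it may be present.

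Markers of cell types and of other organisms were summed to see what else differed. Besides the xylem and green tissue markers above, phloem markers were lower in 23 and higher in 12 of 54 contigs, yet their sums were 202, 197 and 202 CPM at 4 °C, against 184, 195 and 205 CPM at 14 °C, so the stores overlapped. Cambium and meristem markers were lower in 14 and higher in 10 of 25, with sums of 43.4 to 46.3 CPM at 4 °C and 66.9 to 79.2 CPM at 14 °C. TDR (comp73316_c2), the receptor that maintains the vascular cambium, had 2.57, 1.62 and 2.04 CPM at 4 °C and 22.8, 18.1 and 21.6 CPM at 14 °C. Periderm markers had 3 contigs only. Contigs whose symbol is a fungal locus tag summed to 2593 to 2755 CPM at 4 °C, against 2533 to 2689.6 CPM at 14 °C, and those with tags of slime moulds, animals or bacteria to 2399 to 2456 CPM at 4 °C and 2252 to 2409.9 CPM at 14 °C. Such symbols are often given to plant genes by similarity, so these sums do not measure other organisms, and the ranges of the stores overlapped for both. The 2 contigs with a symbol or description of a fungal function summed to 177, 147 and 152 CPM at 4 °C. At 14 °C they summed to 99.2, 108 and 128 CPM. Only 1 of them was called higher, and 0 at 2-fold or more. That call was lost without replicate 1 at 4 °C, and without replicate 1 or replicate 2 at 14 °C. Whether these contigs come from a fungus was not tested.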

How the data were processed

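RNA-seq libraries were compared as labelled, 3 of roots stored at 4 °C and 3 of roots stored at 14 °C. The authors deposited, for each contig, estimated counts, RPKM and TPM per library, with symbol, product, GO, KEGG and KOG columns. Tools listed in the submitters' processing notes are StringTie 1.3.4d, HISAT2 2.0.4, cutadapt 1.9, edgeR and DESeq2, without saying which made the counts. The deposited expected counts were rounded and tested in edgeR 4.0.16 (quasi-likelihood, robust, TMM scaling, filterByExpr) over all 9 libraries, with Benjamini-Hochberg adjustment over 94802 contigs. CPM were computed from these counts and the scaled library sizes. The deposited TPM values ranked abundance, and the deposited RPKM values were not used. The test was checked on simulated counts in which 200 contigs were changed, a far smaller share than was called in these data. It recovered 0 of 68 changes of 1.5-fold, 18 of 69 of 2-fold and 56 of 63 of 4-fold. Of the unchanged contigs 12 were called.

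The contrast, the gene lists and the members named were chosen with earlier results of these data known. Contigs named were, per list, the most abundant called contig in each direction with at least 5 CPM in the higher store, a change of at least 2-fold and no overlap, and the 12 most abundant per length in each direction with at least 8-fold, leaving out starch enzymes, sporamin, chitinases and phenylpropanoid enzymes. Subgroups of lists, and the most abundant called contig of each, were chosen after values were seen, as were exclusions from lists made after reading the annotation. Alternatives were other scalings, filters, tools and sample sets, and leaving out each library.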

Additional observations from a re-analysis of the deposited data

How the results depend on the processing

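Counts over all contigs stayed within 1.5-fold of those reported under every alternative tried. With library totals alone as scaling, 19470 contigs were higher and 26115 lower, 42.7% of calls being higher, against 49.8% with TMM. Of the counts over lists, 65 moved by more than 1.5-fold and 1727 did not. Named contigs kept their direction throughout, and 77 of their values were no longer past the threshold, 31 of them where a change of at least 2-fold was asked for. The median of the lists for AP2/ERF factors, abscisic acid, calcium, ABC transporters, lipids, metals, proteases, transfer RNA synthetases and both kinds of locus tag changed sign under some setting. Leaving out single libraries gave 38648 to 42057 calls.

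Replicate numbers did not pair the libraries: deviations of same-numbered libraries correlated at -0.237, -0.0464 and -0.257. The fit with the replicate block called 41902 contigs.

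Without replicate 3 at 4 °C the log2 fold change of CRF4 (comp53851_c2) was -5.05 and of the other ermp1 contig (comp8118_c2) -5.9. Without replicate 2 at 4 °C that of comp86160_c1 (symbol CYP71A1, described as ferulate-5-hydroxylase) was 7.38. The causes were not tested. The time in store, the strand and the counting program limit what these values mean, and polyploid copies limit the count of genes behind them.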
